A study of Schizosaccharomyces pombe with 2 samples.

Results

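The proteasome's regulatory particle is the cap that recognises ubiquitin-tagged proteins, removes the ubiquitin, unfolds the protein and feeds it into the barrel-shaped core particle, where it is cut. Its base holds a ring of ATPases of the Rpt family, which do the unfolding, together with large scaffold subunits. Its lid holds further subunits of the Rpn family, among them the deubiquitinase. In budding yeast most proteasome genes are activated together by the transcription factor Rpn4.

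A total of 9 regulatory particle genes of fission yeast, Schizosaccharomyces pombe, are described here, of 5006 gene probe names on the arrays. They are the ATPases rpt1, rpt2 (also mts2), rpt3, rpt4, rpt5 and rpt6, and the non-ATPases mts4 (rpn1), rpn12 (mts3) and rpn11 (pad1). They were chosen by function, as the probes that carry one of these names, but with earlier results of these data known. Of these, 9 of 9 passed the filter on dim probes. The study set a wild-type strain with a plasmid expressing Ssn6 (pDUAL-Ssn6) against a wild-type strain with the empty plasmid (pDUAL-EMPTY). Ssn6 is a subunit of a transcriptional corepressor, and the purpose was to find genes that respond to its excess. Both cultures grew in MM-URA, a minimal medium lacking uracil that selects for the plasmid, at 30 °C, and each of 2 spotted two-colour arrays carried RNA of both. RNA was measured in bulk, so fewer cells of a kind and less RNA per cell cannot be told apart.

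Each value below is a ratio of channel B over channel A within one array. The labels put the Ssn6 culture in Cy3 on array 1 and in Cy5 on array 2, while the dye behind channel A or B is stated nowhere in the sources used here. The ssn6 probe gave more signal in channel B than in A on each array, with log2 ratios of 1.91 and 2.18 and a mean of 2.04 ± 0.19 (SD, n = 2 arrays; limma adjusted p = 4.9e-05). Channel B is therefore likely the Ssn6 culture, on that gene alone. Of the other genes checked, ura4 was lower in channel B, at -1.93 and -1.77 on arrays 1 and 2 (mean -1.85, limma adjusted p = 7.6e-05). The gene tup11, at 0.16 and 0.36, did not pass. The cause of the ura4 difference between the cultures was not tested. A channel that held one dye throughout would give opposite signs on the swapped arrays, which was not seen; the sign of no array was turned, and dye bias may not cancel. Across 4841 genes tested the log2 ratios of the arrays correlated with r = 0.807 (across genes, which are not independent replicates). Nothing ties each array to its own culture, so the spread between the 2 arrays, on which the p-values rest, may be only technical.

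Of the 9 genes, 4 were higher in channel B and 0 were lower at a limma adjusted p under 0.05, against 11.8% of all genes tested higher and 16.9% lower (28.7% in either direction). The 4 were rpt1, rpn12, rpt3 and rpt6, at 2.12-fold, 1.72-fold, 1.46-fold and 1.41-fold. The call of rpt6 sits on the threshold (adjusted p = 0.0492). Over 14 other ways of processing the scanner signals its adjusted p ran from 0.0274 to 0.0561, and 6 of the 14 put it above 0.05, where the count is 3 of 9. With the authors' deposited values, 1 spot per gene and array, no gene tested passed with limma (1782 at an unadjusted p under 0.05) and so 0 of the 9 did. The ratio was above 0 on both arrays for 9 of 9 genes, against 38.8% of all genes tested. At 1.5-fold or more on both arrays, 2 of 9 passed, rpt1 and rpn12, against 6.28% of all genes, and 0 of 9 were lower by as much, against 11.6%. On single arrays 2 of 9 reached 1.5-fold on array 1, where 11.9% of all genes did, and 3 of 9 on array 2, where 12.3% did. The ratio was larger on array 2 than on array 1 for 6 of 9 genes and for 56.9% of all genes. The median log2 ratio of the 9 was 0.32, and that of all genes tested was 0.016. These counts are descriptions of a short list and carry no test of their own.

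Each gene was spotted 2 times per array. Of the 36 spots, 35 had signal, 34 of these were brighter in channel B before any normalization, and 0 were saturated. Most gene spots of both arrays were brighter in channel B too. The median log2 ratio of all gene spots before normalization was 0.19 on array 1 and 0.28 on array 2. The A signals lay between 75099 and 191462 and the B signals between 104416 and 321113, against 95th percentiles of the negative control spots of 22129.3 and 21250.9 on array 1 and 17908.3 and 18211.4 on array 2. The 35 regulatory particle spots with signal were thus well above background in both channels.

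**Figure D1:**
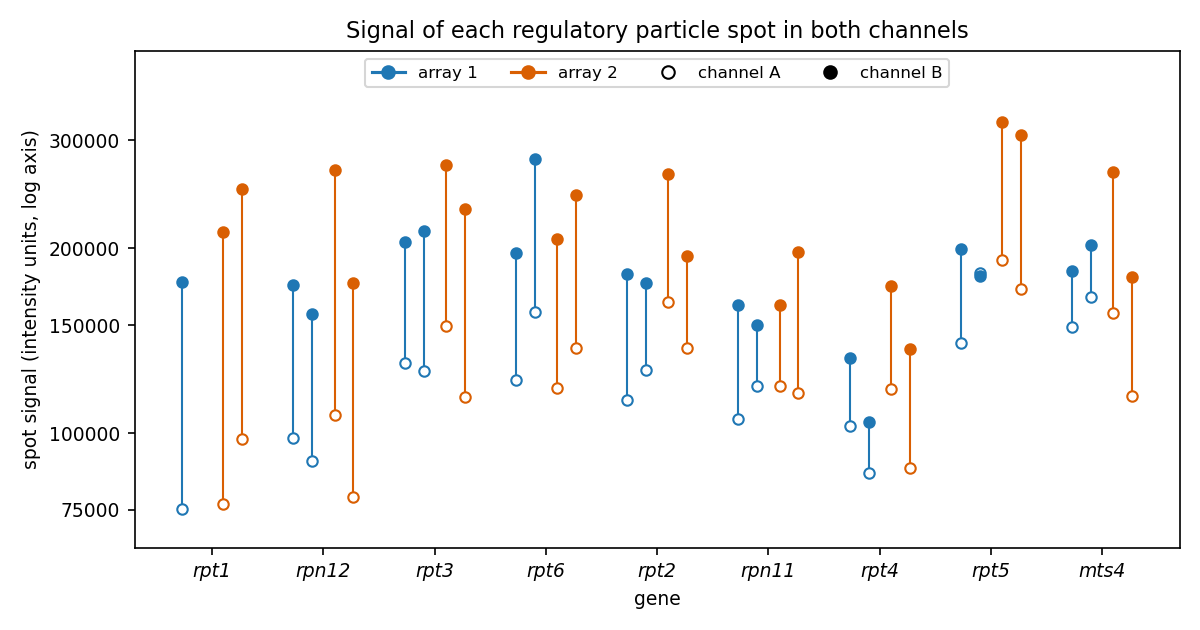
Background-corrected signal (intensity units, log axis) of each spot of the 9 genes, with channel A as open and channel B as filled points joined by a line, array 1 in blue and array 2 in orange. Channel B lies above channel A in 34 of 35 spots, before normalization, when most gene spots of both arrays were brighter in channel B. The exception is a spot of rpt5 on array 1. Signals cannot be compared between genes, since each probe binds differently.

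Among the ATPases rpt1 had the highest ratio. On array 1 its only spot with signal read 75099 in channel A against 176082 in channel B. On array 2 its spots had A signals of 76736 and 97941, and B signals of 212642 and 250315. Before normalization its channel B signals were more than its channel A signals in all 3 spots, and the channels did not overlap. Such non-overlap does not set apart the genes that passed. It was also seen for rpt2, rpn11 and mts4, which did not pass, and its share over all genes was not counted. After loess the log2 ratio was 1.08 on array 1 and 1.09 on array 2, a mean of 1.08 ± 0.006 (SD, n = 2; limma adjusted p = 0.0013), with a 95% interval of 0.72 to 1.45. The SD rests on 3 spots, which ranged more widely, from 1.02 to 1.16. The highest spot, on array 2, carries a scanner flag other than the common one in channel A. With spots of the commonest flag only, the mean was 1.05 (limma adjusted p = 0.0013). The gene ranked 100 of 4841 by mean ratio.

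Rpt3 and rpt6 also passed among the ATPases, rpt6 only at the threshold. On array 1 the rpt3 spots read 130256 and 126401 in channel A against 205243 and 213718 in channel B. On array 2 they read 149520 and 114428 against 273157 and 231682. The channels of rpt3 did not overlap before normalization, when channel B was brighter in most gene spots. Its log2 ratio was 0.49 on array 1 and 0.59 on array 2, a mean of 0.54 ± 0.08 (SD, n = 2; limma adjusted p = 0.0361). On array 1 the rpt6 spots read 121877 and 157402 in channel A against 196280 and 279248 in channel B. On array 2 they read 118483 and 137438 against 207051 and 244183. The channels of rpt6 did not overlap before normalization either. Its log2 ratio was 0.51 and 0.47, a mean of 0.49 ± 0.03 with a 95% interval of 0.13 to 0.86. The rpt3 call held in each of the 14 other ways of processing the scanner signals (adjusted p up to 0.0426), and the rpt6 call in 8 of them.

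The other ATPases did not pass the test. The products of rpt2 and rpt5 help to open the gate of the core particle in budding yeast. The rpt2 log2 ratio was 0.38 on array 1 and 0.25 on array 2, a mean of 0.32 ± 0.10 (SD, n = 2; limma adjusted p = 0.177), with an interval of -0.05 to 0.69. The rpt4 ratio was 0.18 and 0.29, a mean of 0.24 ± 0.08 (limma adjusted p = 0.305), with an interval of -0.13 to 0.61. Both were above 0 in every spot, from 0.16 to 0.49 for rpt2 and from 0.15 to 0.35 for rpt4. The intervals take in both no difference and a difference of the size called for rpt3, so these arrays do not separate the cases.

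The arrays disagreed most on rpt5. Its array 1 spots had A signals of 140207 and 182340 and B signals of 199460 and 180059, and after loess their log2 ratios were 0.28 and -0.26. Its array 2 spots had A signals of 191462 and 171856 and B signals of 321113 and 305888, with log2 ratios of 0.37 and 0.46. One array 1 spot thus went against the other 3, and its channel B carries a scanner flag other than the common one. The gene's ratio was 0.01 on array 1 and 0.41 on array 2, a mean of 0.21 ± 0.29 (SD, n = 2; limma adjusted p = 0.392).

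Of the non-ATPases, rpn12 was higher in channel B. It encodes a lid subunit that, in budding yeast, helps to join the lid to the base. On array 1 its spots read 98066 and 89924 in channel A against 174169 and 156238 in channel B. On array 2 they read 107099 and 78561 against 268190 and 175527. The channels did not overlap before normalization, as was also so for rpn11 and mts4, which did not pass. The log2 ratio was 0.65 on array 1 and 0.92 on array 2, a mean of 0.79 ± 0.19 (SD, n = 2; limma adjusted p = 0.00841), with an interval of 0.40 to 1.17. The gene ranked 238 of 4841.

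The deubiquitinase gene rpn11 and the scaffold gene mts4 did not pass. The rpn11 log2 ratio was 0.30 on array 1 and 0.28 on array 2, a mean of 0.29 ± 0.02 (SD, n = 2; limma adjusted p = 0.211). Its array means lie closer together than its spots, which ran from 0.12 to 0.45. The mts4 ratio was 0.06 on array 1 and 0.36 on array 2, a mean of 0.21 ± 0.21 (limma adjusted p = 0.383), with an interval of -0.18 to 0.59. The median over the 3 non-ATPases was 0.29 and that over the 6 ATPases 0.41.

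**Figure D2:**
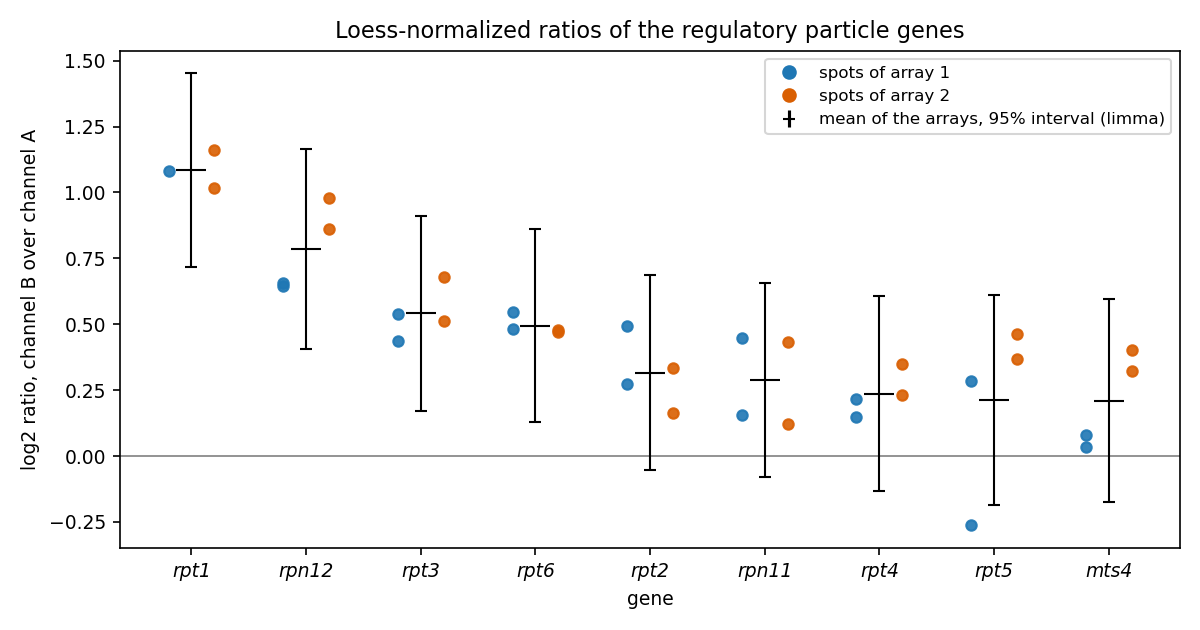
Loess-normalized log2 ratio (channel B over A) for each spot of the 9 genes (array 1 blue, array 2 orange), with the mean of the arrays and its 95% interval from limma in black. The intervals of rpt1, rpn12, rpt3 and rpt6 lie above 0, and those of the other 5 genes include 0.

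In the order of mean ratios, rpt1 exceeded rpn12, rpn12 exceeded rpt3 and rpt6 exceeded rpt2 on both arrays. The neighbours rpt3 and rpt6 changed places between the arrays, as did every neighbouring pair from rpt2 down. The order from rpt2 down is therefore within the spread between arrays. The loess curve took between 0.13 and 0.28 off the log2 ratios of these spots on array 1 and between 0.29 and 0.38 on array 2. The 1302 genes with a mean signal in the range of the 9 had a median log2 ratio of -0.01, 13.5% of them were higher at the threshold and 38.7% were above 0 on both arrays.

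**Figure D3:**
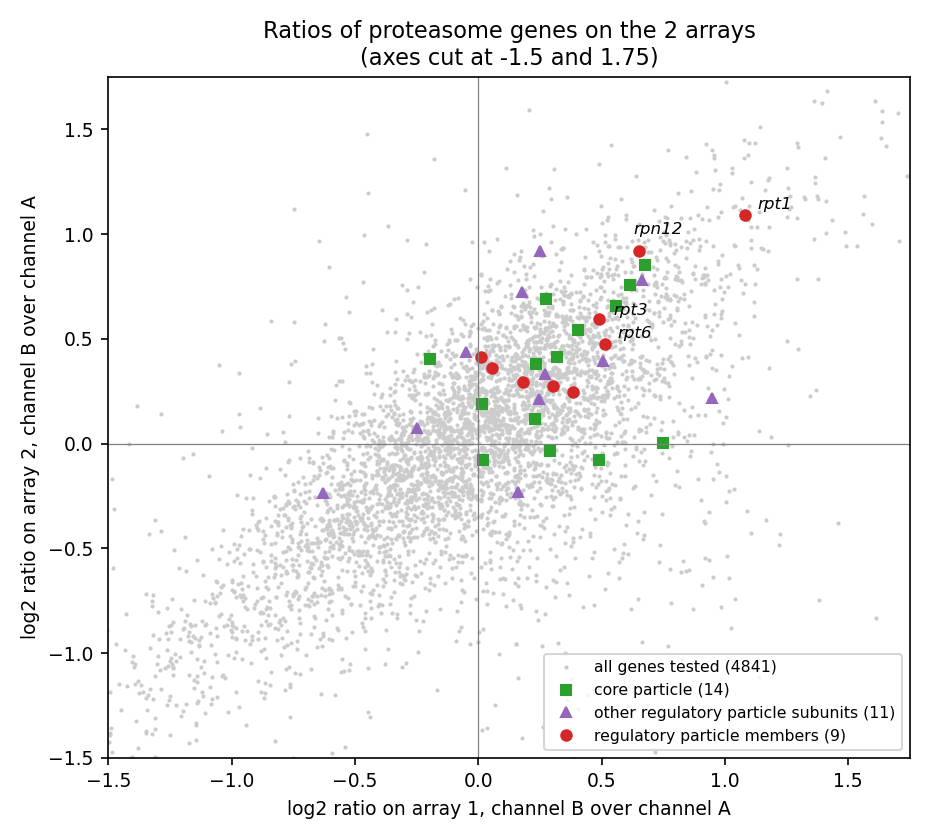
Log2 ratio (channel B over A) on array 1 (horizontal) and array 2 (vertical) for all 4841 genes (grey), the 9 regulatory particle genes (red), 11 other regulatory particle subunits (purple) and 14 core particle subunits (green). All 9 red points lie above 0 on both axes; genes beyond the axis limits are not drawn.

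Other regulatory particle subunits gave a similar median and fewer calls. Of 11 tested, 1 was higher and 0 lower (limma, adjusted over all genes), and the median log2 ratio was 0.30, against 11.8% and 16.9% of all genes. The gene that passed was rpn3, a lid subunit, at 0.67 and 0.78 on arrays 1 and 2 and a mean of 0.72 ± 0.08 (adjusted p = 0.0105). The highest that did not pass was rpn6, another lid subunit, with 0.25 on array 1, 0.92 on array 2 and an adjusted p of 0.0537. The lowest was rpn502, a copy of the rpn5 gene, at -0.63 and -0.24 (adjusted p = 0.0941). A near-identical copy of rpn502 exists, and their signals may not be separable on these arrays.

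The 14 core particle genes included 3 that passed as higher and 0 as lower, and their median log2 ratio was 0.34. These were scl1, an alpha-ring subunit, at a mean of 0.76 ± 0.12 (SD, n = 2; limma adjusted p = 0.0087), and the beta-ring subunits pup1 at 0.69 ± 0.10 and pre3 at 0.61 ± 0.07. The share of 3 in 14 stands beside 11.8% of all genes. Of those that did not pass, pts1, a beta-ring subunit, was highest at 0.48 ± 0.30 and pup3, also of the beta ring, lowest at -0.03 ± 0.07.

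Assembly and associated factors had 0 of 10 tested genes higher, beside 11.8% of all genes, and 1 lower, beside 16.9%. Their median was -0.06. The lower gene was ecm29, which encodes a proteasome-associated protein, at -0.87 and -0.73 and a mean of -0.80 ± 0.10 (limma adjusted p = 0.00652). Another probe matched to ecm29 was not among those tested, so the call does not rest on it. The highest of the rest was nas6, an assembly chaperone of the ATPase ring, at 0.46 ± 0.002 (adjusted p = 0.061), and the lowest ubr1, a ubiquitin ligase, at -0.50 ± 0.18 (adjusted p = 0.0526).

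The 16 ubiquitin-system genes included 2 that passed as higher, near the 11.8% of all genes, and 4 as lower, beside 16.9% of all genes. Their median was -0.01, and of the 6 calls only that of rhp23 held in each of the 14 other ways of processing the scanner signals. Rhp23, a shuttle factor that carries ubiquitinated proteins to the proteasome, was at 0.64 ± 0.08 (SD, n = 2; limma adjusted p = 0.0178), and at 0.35 with the authors' values. The conjugating-enzyme gene ubc4 was at 0.51 ± 0.11 (adjusted p = 0.0453). Its ratio was 1.25 with median centring, 1.23 with print-tip loess, 1.24 with spot medians and 0.87 with 1 loess iteration, and its call was lost with no filter on dim probes (adjusted p = 0.0523) and with 5 loess iterations (0.0555). The polyubiquitin gene ubi4 was at -0.77 ± 0.28 (adjusted p = 0.0111). That call was lost with median centring (-0.17, adjusted p = 0.477), spot medians (-0.12, 0.658), print-tip loess (-0.35, 0.147) and 1 loess iteration (-0.47, 0.072). The ubiquitin fusion genes ubi5, at -0.91 ± 0.22, and ubi3, at -0.56 ± 0.35, were lower after loess but at 0.13 and 0.035 with median centring, and both have saturated spots. The fourth lower gene, ubx2, was at -0.52 ± 0.20 (adjusted p = 0.0476). This call too sits on the threshold, and it was lost with no filter (0.055), without saturated spots (0.0514) and with 1 (0.0543) or 5 (0.0508) loess iterations. Of those that did not pass, mud1 was highest at 0.45 ± 0.06 and npl4 lowest at -0.45 ± 0.09. Ubiquitin genes share coding sequence, so their signals may not be separable.

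**Figure D4:**
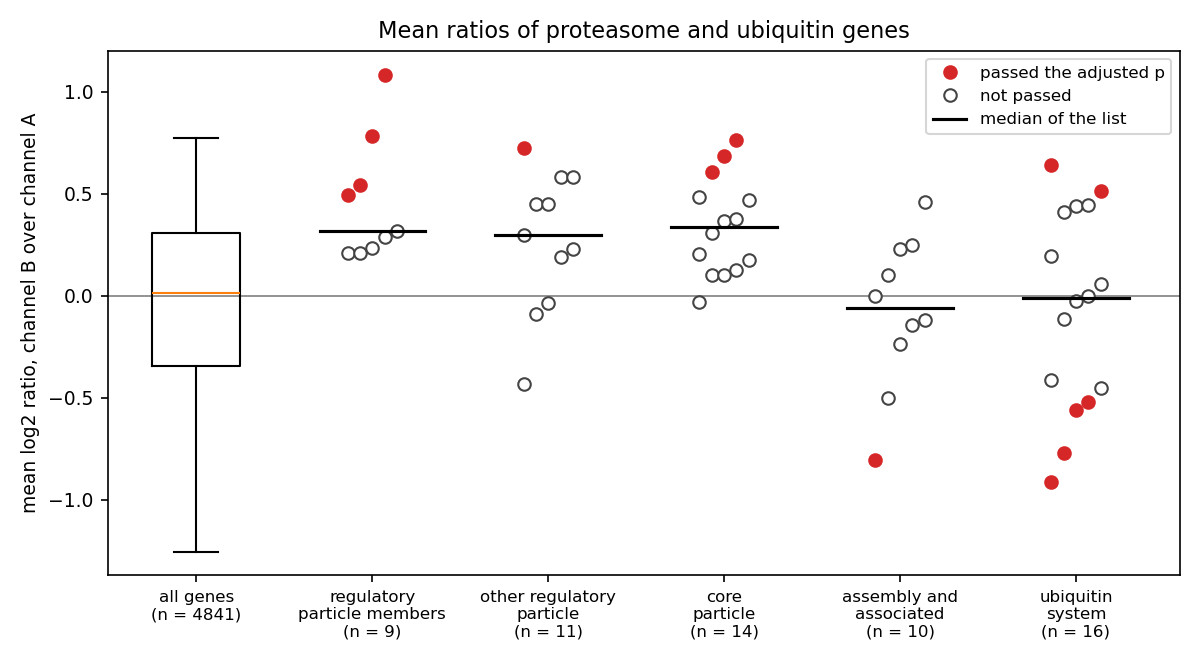
Mean log2 ratio (B over A) of the arrays for each gene of 5 lists, filled where the adjusted p passed, with the list's median as a bar. The box for all 4841 genes spans the quartiles, its line is the median and its whiskers reach the 5th and 95th percentiles; the medians of the regulatory particle and core particle lists lie between 0.30 and 0.34.

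The ratios kept their sign in the other ways of processing. In the authors' deposited value table the ratios, converted to log2, were 1.13 and 1.23 for rpt1, 0.70 and 1.06 for rpn12, 0.47 and 0.60 for rpt3 and 0.50 and 0.56 for rpt6 on arrays 1 and 2. The other 5 genes lay between 0.10 and 0.53 in that table, so all 9 were above 0 there too. With the sign of array 1 turned, as the labelled swap would ask if a channel were one dye throughout, no gene tested passed with limma (6 at an unadjusted p under 0.05). The mean ratios of the 9 then lay between -0.068 and 0.20.

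**Figure D5:**
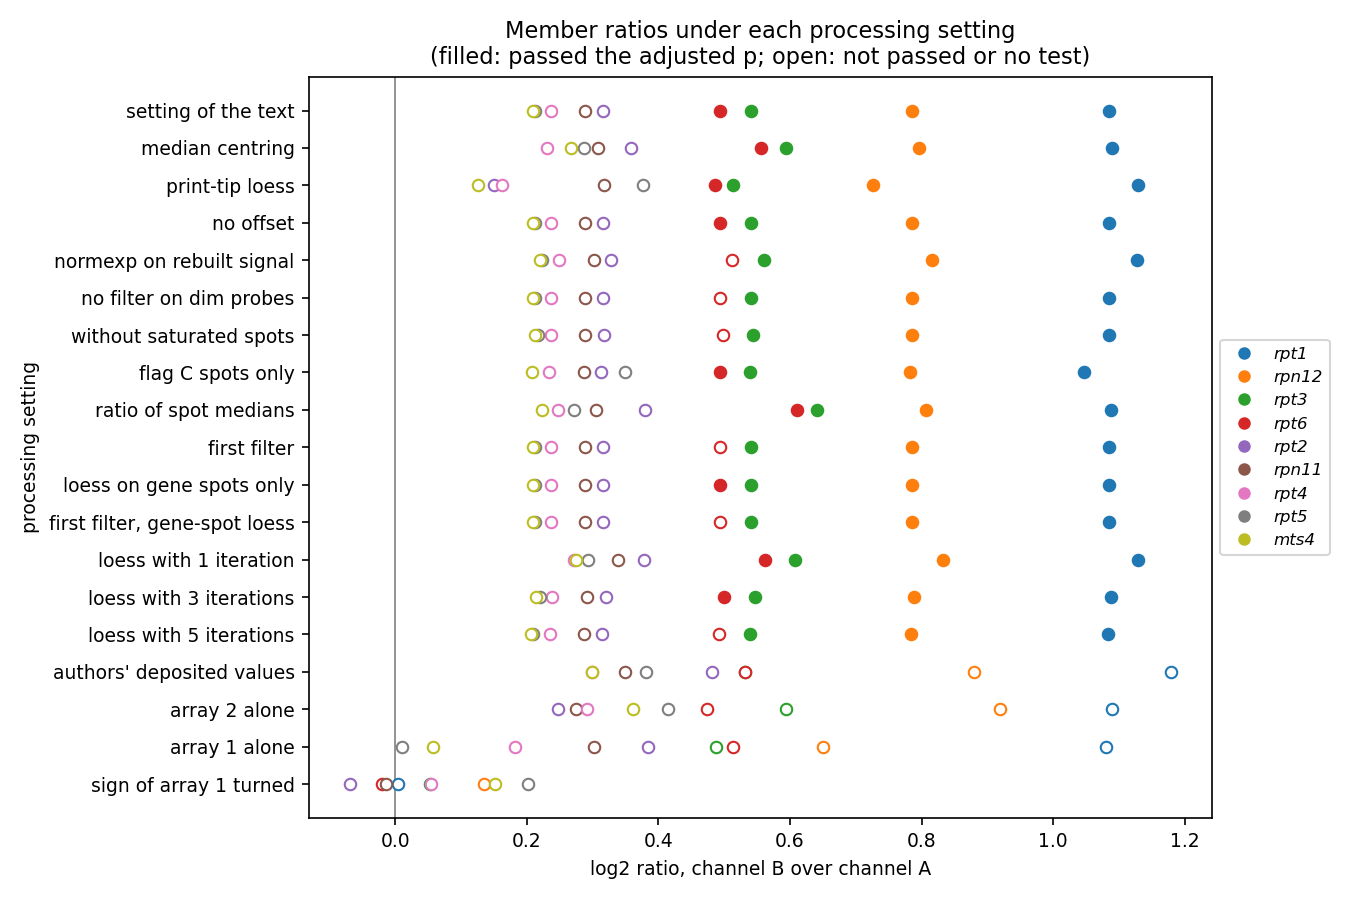
Mean log2 ratio (B over A) of the 9 genes (colours) under each way of processing, filled where the limma adjusted p was under 0.05 and open where it was not or no test was possible. The point of rpt6 changes between filled and open, while rpt1, rpn12 and rpt3 are open only with the authors' values, with a single array or with the sign of array 1 turned.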

How the data were processed

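The scanner files give, per the file headers, an intensity per spot and channel (A and B) from which the authors had already taken the background. The headers further name, for the deposited files, a linear ratio of the channels, a saturation factor as a fraction from 0 to 1, the background intensity and letter flags, whose meaning no source used here gives. The series' value table was made by the authors by lowess per array, per the design text of the series, and the deposited values are log10 ratios of channel B over A; that scale and direction are not stated and were found from the scanner values (r = 0.987 and 0.993 over its first 5760 rows). Its later rows did not follow the spots and were not used, and values at its floor of -2 were treated as missing. Each column's median was 0.01.

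An offset of 50 was added to the signals, and the log2 ratio was normalized within each array by loess (span 0.3, 4 iterations, controls at weight 0). Spots of a probe were averaged. Probes dimmer on either array, in both of its channels, than the 95th percentile of the negative controls were left out, which left 4841 of 5006 names. Of the names, 4777 matched the gene table of assembly ASM294v3. Each mean was tested against 0 with limma 3.58.1 in R 4.3.3 (with data.table, version 1.17.8, and jsonlite, version 2.0.0), two-sided, with Benjamini-Hochberg adjustment over all genes and a threshold of 0.05. The fits were tested on simulated data. With 2 arrays, the smallest p of an exact sign-flip test is 0.5.

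The 9 genes and the lists were chosen with earlier results of these data known. The fit across all genes was run in 3 versions before its settings were fixed. The set of negative controls, the handling of spots without signal and the loess weighting and iterations were settled after the first results had been seen, by trying several definitions until the counts met those of an earlier processing of the same data. In the first version 4903 genes were tested, 1371 passed, rpt6 had an adjusted p of 0.0507 and 3 of the 9 genes passed; in the version used, 1389 passed and 4 of 9 did. Matching of the genes dsk2 and ecm29 to probes was also corrected after values had been seen. From the other lists, named genes are the genes that passed (the 4 with the largest ratio where more did) and the highest and lowest that did not; ubc4 and ubx2 were named after their values were seen. The reference gene table carries no product text, so lists were matched by name, and 8 of 18 associated factors were not found in it.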

Additional observations from a re-analysis of the deposited data

How the results depend on the processing

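No separate paired analysis was run, because each array holds both cultures and the ratio tested against 0 already compares them within an array. The direction of the 9 genes held in all 15 alternatives other than turning array 1, and rpt1, rpn12 and rpt3 stayed past the threshold in 14 of these 15. The exception is the authors' values, where adjusted p for these was 0.0741 to 0.0941. The 6 alternatives on the filter, the loess spots and the loess iterations were added after seeing the data. The call of rpt6 was lost with normexp (0.0519), no filter on dim probes (0.0561), no saturated spots (0.0507), the first filter (0.0512), the first filter with loess on gene spots (0.0507) and 5 loess iterations (0.0528), which leaves 3 of 9; the cause was not tested. With 1 loess iteration 51.5% of calls were higher, against 41.2%.

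The median of the 9 was 0.36 with median centring, 0.38 with print-tip loess, 0.35 with the commonest flag only, 0.38 with spot medians, 0.38 with 1 iteration, 0.48 with the authors' values and 0.054 with array 1 turned, and 0.38 to 0.41 on a single array. Higher calls among other regulatory particle subunits were 3, 2, 3, 3 and 2 with median centring, print-tip loess, spot medians, 1 and 3 iterations; core particle calls were 5 with median centring, spot medians and 1 iteration. Associated factors had 2 lower calls with median centring, print-tip loess and the commonest flag, and 1 higher call with 1 iteration. Ubiquitin-system higher calls were 5, 5, 4, 1 and 1 with median centring, spot medians, 1 iteration, no filter and 5 iterations; lower calls were 2, 2, 2, 1, 1 and 0 with median centring, spot medians, no filter, print-tip loess, no saturated spots and 1 iteration. With the authors' values, and with array 1 turned, 0 genes were called over all genes and in every list by limma (1782 and 6 at an unadjusted p under 0.05).

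The ubiquitin-system median changed sign, to 0.27 with median centring, 0.0089 with normexp, 0.093 without saturated spots, 0.031 with the commonest flag, 0.29 with spot medians, 0.25 and 0.035 with 1 and 3 iterations, 0.32 with the authors' values, 0.096 with array 1 turned, and ran from -0.16 to 0.16 over the single arrays. With median centring and spot medians ubi3 was at 0.035 and 0.072 and ubi5 at 0.13 and 0.20. With array 1 turned, rpt2 was at -0.068, rpt6 at -0.0199, rpn11 at -0.013, ecm29 at 0.072, ubi3 at 0.25, ubi4 at 0.20 and ubi5 at 0.16. The lowest spot of rpt5 was at -0.26. The cause of these changes was not tested.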

Other observations

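The genes on either side of the 9 regulatory particle genes were taken by their order in the ASM294v3 gene table. Of 18 neighbours, 17 were tested, and 2 were higher in channel B and 2 lower (limma, adjusted over all genes). These counts stand beside 11.8% of all genes higher and 16.9% lower, and their median log2 ratio was 0.12. The gene after rpt6, SPBC23G7.13c, was 5.26-fold lower in channel B, with log2 ratios of -2.47 and -2.32 on arrays 1 and 2 (adjusted p = 1.7e-05), beside rpt6 itself at 0.49. The gene after rpt2, maa1, was 2.90-fold lower (-1.81 and -1.26, adjusted p = 0.000421). The gene before rpt5, pfd6, was at 0.89 and 0.39 (adjusted p = 0.0297), and the gene after rpn12, rbk1, at 0.51 and 0.52 (adjusted p = 0.0424). These 4 neighbours were named after their values were seen.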
